A study of Mus musculus with 9 samples.

Results

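The heat shock proteins, the J-domain proteins and the subunits of the cytosolic chaperonin are the main families of genes whose products fold newly made proteins and refold damaged ones. Members were taken by symbol: genes named Hspa, Hspb, Hspd, Hspe, Hsph or Hsp90 (28 genes, called HSP), genes named Dnaj (44 genes, called DNAJ) and the genes named Cct2 to Cct8 with their relatives (9 genes, called CCT). Hspa5 and Dnajb9, which belong to the unfolded protein response of the endoplasmic reticulum, were left out by that rule. This gave 81 of the 23235 genes in the table. The study isolated oocytes from day 21 mice, wild-type (WT) or lacking MTR4 (MTR4-null), and split each oocyte by micromanipulation into its nucleus and its cytoplasm. MTR4 is the RNA helicase that feeds nuclear RNA to the exosome, the cell's main 3′ to 5′ RNA-degrading complex. Each sample pooled 10 nuclei or 10 cytoplasms, and total RNA was sequenced after removal of ribosomal RNA. The labels list 9 libraries, 3 of WT nuclei and 2 each of WT cytoplasms, MTR4-null nuclei and MTR4-null cytoplasms. They do not say how the null allele was made.

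The levels are FPKM, that is fragments relative to transcript length and to all mapped fragments, so that genes can be compared with each other within a column. The table holds 4 columns, 1 for each genotype and compartment. Each is the authors' value for a whole group, with no replicates, so the error of every value is unknown, no difference was tested, and each comparison below describes these columns. Differences are on the log2(FPKM + 1) scale, which understates those of genes with low values, and "at least 2-fold" refers to that scale. The mRNA of Mtr4 itself (Skiv2l2) was at 16.2 FPKM in WT nuclei and 2.91 in MTR4-null nuclei, and at 21.6 and 2.51 in the respective cytoplasms. All 14 oocyte markers were present, with a summed level between 8522 and 14210 FPKM over the columns. Of 17 granulosa cell markers, 15 reached 1 FPKM in some column, and their summed level lay between 46.5 and 80.6 FPKM. That sum was lower in both MTR4-null columns than in the WT column of the same compartment, but single markers went both ways. In the MTR4-null nucleus 6 of the 15 were at least 2-fold higher and 4 lower, with a median log2 difference of 0.55. Of all genes at 1 FPKM or more in some column, 23.9% were higher and 12.3% lower there. In the cytoplasm 0 were higher and 2 lower, with a median of -0.07 (no test was run). Amh was listed at 0 in WT nuclei and at 1.44 FPKM in MTR4-null nuclei, and was at 2.36 and 1.10 in the respective cytoplasms. Of the 4 markers lower in the MTR4-null nucleus, Cyp11a1 was at 21.3 FPKM in WT nuclei and 1.47 in MTR4-null nuclei. Inhbb was at 7.90 and 0.826. Small RNA genes took 57.7% of the summed FPKM in the WT nucleus, 53.5% in MTR4-null nuclei, 4.09% in WT cytoplasms and 39.0% in MTR4-null cytoplasms. FPKM is relative to the total of a column, so less RNA of a gene and more RNA of other genes cannot be told apart. A change in the total RNA of each nucleus or cytoplasm would not be seen either.

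HSP70 proteins bind short hydrophobic stretches of unfolded proteins in a cycle driven by ATP. J-domain proteins (DNAJ) bring clients to HSP70 and speed up its ATP hydrolysis, while HSP110 proteins act as nucleotide exchange factors that let HSP70 release its client. HSP90 acts later, on kinases, receptors and other nearly folded clients. The cytosolic chaperonin CCT (also called TRiC) is a double ring in which each ring holds one copy of every different subunit, and it folds actin and tubulin in a closed chamber. Many of these genes are induced by heat shock factors, which bind inverted repeats of the pentamer NGAAN.

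Upstream sequences are shown for members that recur below, to set the letters of the heat shock element beside the levels. The RefSeq promoter table (build GRCm38.p6, 250 bases before to 50 after each start) held 66 of the 81 members, with 85 windows. The other 15, Hspa8, Hsp90aa1, Hsp90ab1, Hspa9 and Cct4 among them, had no entry and were not searched. The core GAANNTTC was in 21.2% of the member windows and in 7.86% of all 32851 windows, and the core TTCNNGAA in 11.8% and 8.52%. The groups differed: GAANNTTC was in 38.5% of 26 HSP windows, 12.2% of 49 DNAJ windows and 20% of 10 CCT windows. For TTCNNGAA the shares were 15.4%, 8.16% and 20%. Each core is its own reverse complement, so a match counts for both strands, and in longer elements the cores overlap. Elements of 3 units, in which a GAANNTTC and a TTCNNGAA core overlap by 1 triplet in either order, were in 6 member windows (7.06%) and in 0.603% of all windows. Those 6 windows belong to 4 members: Hspd1, Hspe1, Hsph1 and Dnajb6. Dnajb6 and Hsph1 each entered through overlapping windows of different starts that hold the same element, and Hspd1 and Hspe1 share 1 element. The windows are therefore not independent, and the 7.06% counts elements more than once. In Hsph1 the element of 3 units lies after the start, and the stretch printed for it holds a single core before the start. A match is a description of letters, not of a bound site. In the sequences that follow, capitals mark the triplets of each core. The Hspe1 stretch (chr1:55088053-55088082, plus strand) also lies in the window of Hspd1, the neighbouring gene read in the other direction. The Hsph1 stretch is chr5:149636351-149636380 on the minus strand, Dnajb6 chr5:29735844-29735873 on the plus strand, and Cct5 chr15:31601862-31601891 on the minus strand. These stretches of 30 bases overlap annotated exons: those of Hspe1, Hsph1 and Dnajb6 overlap exons of their own genes. The Hspe1 stretch also overlaps an exon of Hspd1, that of Dnajb6 an exon of Gm5129, and that of Cct5 an exon of another gene, Fam173b. Dnajb4 is shown over 150 bases (chr3:152193846-152193995, minus strand), with its core 14 bases before the start. Hspa1b is shown over 150 bases as well (chr17:34959239-34959388, minus strand), and the same stretch of Hspa1a is identical at 149 of 150 bases.
Hspe1: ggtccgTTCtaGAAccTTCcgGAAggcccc
Hsph1: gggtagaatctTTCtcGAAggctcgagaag
Dnajb6: agctccgaGAAtcTTCcgGAAcgctagacc
Cct5: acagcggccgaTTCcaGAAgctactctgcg
Dnajb4: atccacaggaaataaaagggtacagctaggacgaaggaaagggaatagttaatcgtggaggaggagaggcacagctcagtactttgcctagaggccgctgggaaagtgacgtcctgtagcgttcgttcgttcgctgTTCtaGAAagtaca
Hspa1b: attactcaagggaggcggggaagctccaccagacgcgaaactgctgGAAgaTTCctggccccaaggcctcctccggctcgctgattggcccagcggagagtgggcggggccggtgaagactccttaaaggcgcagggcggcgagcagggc

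Hspa8 and Hsp90aa1 had the highest levels among the members in WT, whereas the stress-induced HSP70s and most small HSPs were low. Other stress-induced members, Hsp90aa1, Hsph1 and Dnajb1, were abundant. Of the 81 members, 56 were at 1 FPKM or more in all 4 columns, 39 reached 20 FPKM in some column, and 11 stayed under 1 FPKM everywhere. Cct8l1 and Dnajb8 were listed at 0 in all 4 columns. Summed over members, the level was 3437 FPKM in WT nuclei, 3273 in MTR4-null nuclei, 4031 in WT cytoplasms and 2215 in MTR4-null cytoplasms. The MTR4-null sum was 95.2% of WT in the nucleus and 54.9% in the cytoplasm. As a share of the FPKM outside small RNA genes, the members took 0.950%, 0.798%, 1.01% and 0.839% in the same order. On that scale MTR4-null stood at 84.0% of WT in the nucleus and 83.2% in the cytoplasm, so that the gap between the compartments was no longer seen. By group, the MTR4-null cytoplasm had 50.8% of the WT sum for HSP, 56.5% for DNAJ and 66.9% for CCT. In the nucleus the corresponding values were 88.5%, 96.7% and 117.9%. As shares outside small RNA genes, the MTR4-null values were 76.9%, 85.5% and 101.2% of WT in the cytoplasm and 78.0%, 85.2% and 104.0% in the nucleus. HSP was lowest and CCT highest relative to WT. This order cannot differ between the scales, since each column is divided by a single total. It also rested on Hspa8 and Hsp90aa1. Without these genes, the MTR4-null HSP sum was 132.0% of WT in the nucleus and 72.9% in the cytoplasm, above CCT in both.

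**Figure D1:**
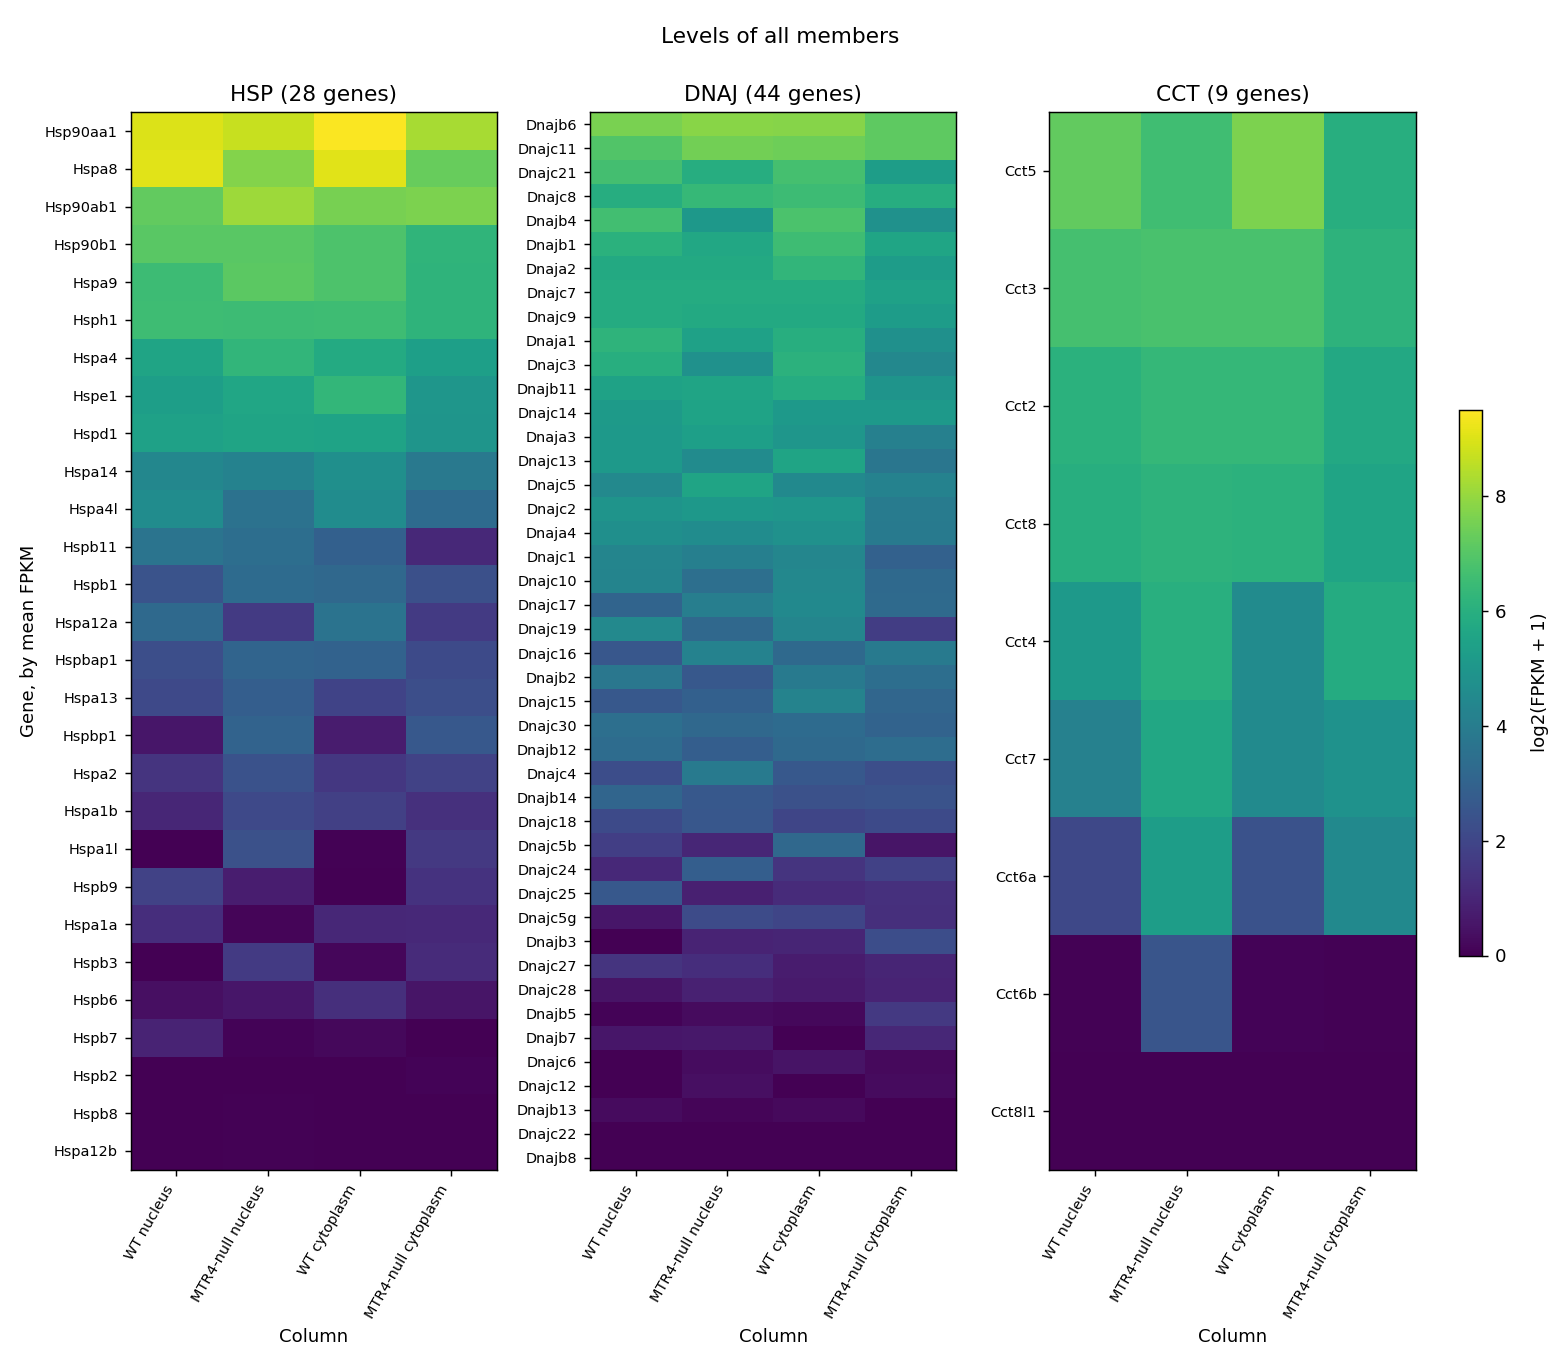
Level of each of the 81 members on the log2(FPKM + 1) scale (color) in the 4 columns, genes ordered by their mean within HSP, DNAJ and CCT. Hsp90aa1 and Hspa8 are the brightest HSP genes in WT, Hspa8 and Dnajb4 are darker in both MTR4-null columns, and Cct6a is brighter in them.

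Among the HSP70 genes, the constitutive cytosolic HSP70 dominated in WT oocytes and was much lower in MTR4-null oocytes in both compartments. Hspa8, that constitutive HSP70, was at 533 FPKM in WT nuclei, 214 in MTR4-null nuclei, 543 in WT cytoplasms and 154 in MTR4-null cytoplasms. The WT levels of Hspa8 thus matched closely between nucleus and cytoplasm, and the MTR4-null levels were 40.2% and 28.4% of WT. On the log2 scale Hspa8 differed by -1.31 in nuclei and -1.81 in cytoplasms, and this stayed between -1.82 and -1.10 in all the processing alternatives. Hspa8 made up 31.0% of the HSP sum in the WT nucleus and 14.1% in MTR4-null nuclei, and 26.9% and 15.03% in the cytoplasms. Hspa12a, a distant HSP70 relative, was at 8.60 FPKM in WT nuclei, 2.07 in MTR4-null nuclei, 11.2 in WT cytoplasms and 2.04 in MTR4-null cytoplasms. It shared the direction of Hspa8 in both compartments at a far lower level.

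The mitochondrial HSP70, Hspa9, differed in direction between compartments. It was at 90.8 FPKM in WT nuclei and 137 in MTR4-null nuclei, and at 113 and 70.5 in the cytoplasms. Its log2 differences, 0.59 and -0.67, were both under 2-fold, and the cytoplasmic sign changed with the scaling of the columns (0.03 when centred on genes at a mean of 20 FPKM or more). Hspa14, which works at the ribosome, was at 20.3, 17.5, 25.3 and 13.2 FPKM in WT nuclei, MTR4-null nuclei, WT cytoplasms and MTR4-null cytoplasms. Hspa13, an HSP70 of the secretory pathway, was at 3.32, 6.19, 2.74 and 3.93 FPKM in that order. Neither gene was 2-fold apart in any comparison.

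The stress-induced HSP70 genes stayed low in every column. Hspa1a was at 1.38 FPKM in WT nuclei, 0.0962 in MTR4-null nuclei, 1.09 in WT cytoplasms and 1.12 in MTR4-null cytoplasms. Hspa1b was at 1.02, 3.32, 2.50 and 1.51 FPKM in the same order. The pair are near-identical copies, and the counting could split fragments between them in either way, so their opposite directions in the nucleus are uncertain. Hspa2, best known from male germ cells, was at 1.70, 4.21, 1.88 and 2.65 FPKM. Hspa1l, also known from testis, was at 0.0144 and 4.16 FPKM in the WT and MTR4-null nuclei and at 0.0471 and 1.98 in the cytoplasms. Hspa1l was thus near 0 in WT and low but present in both MTR4-null columns. It was named after its values were seen.

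The HSP110 exchange factors went apart from each other. Hspa4 was at 45.7 FPKM in WT nuclei, 76.2 in MTR4-null nuclei, 55.2 in WT cytoplasms and 39.7 in MTR4-null cytoplasms. Its closest relative Hspa4l was at 23.8, 10.8, 23.7 and 8.94 FPKM in that order, lower in both MTR4-null columns by -1.07 and -1.32 on the log2 scale. The ratio of Hspa4 to Hspa4l, which does not depend on the scaling of a column, was 1.92 in WT nuclei, 7.04 in MTR4-null nuclei, 2.33 in WT cytoplasms and 4.44 in MTR4-null cytoplasms. Hsph1, a stress-induced HSP110, was the steadiest of the 3, at 92.3, 89.9, 93.9 and 71.6 FPKM. Hspbp1, which promotes nucleotide exchange on HSP70, was at 0.506 FPKM in WT nuclei, 7.16 in MTR4-null nuclei, 0.660 in WT cytoplasms and 5.15 in MTR4-null cytoplasms. The MTR4-null levels of Hspbp1 were 14.2 and 7.81 times those in WT, with log2 differences of 2.44 and 1.89.

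The cytosolic HSP90 genes shifted toward the constitutive form in MTR4-null oocytes. Hsp90aa1, the inducible isoform, was at 507 FPKM in WT nuclei, 411 in MTR4-null nuclei, 698 in WT cytoplasms and 305 in MTR4-null cytoplasms. Hsp90ab1, the constitutive isoform, was at 148, 278, 188 and 198 FPKM in that order. The ratio of Hsp90ab1 to Hsp90aa1 was 0.292 in WT nuclei and 0.270 in WT cytoplasms, and 0.675 and 0.651 in MTR4-null nuclei and cytoplasms. The ratio was nearly the same in the compartments of 1 genotype and over 2 times higher in MTR4-null. The ratio of Hspa8 to Hsp90ab1 was 3.59 and 2.88 in WT nuclei and cytoplasms and 0.771 and 0.777 in the MTR4-null ones, so that the order of these genes was reversed. Hsp90b1, the HSP90 of the endoplasmic reticulum, was at 134, 134, 113 and 73.3 FPKM. Hspa8 and Hsp90aa1 together made up 60.6% of the HSP sum in the WT nucleus and 61.5% in WT cytoplasms, against 41.2% and 44.7% in MTR4-null. Without these genes, the HSP sum was 677 FPKM in WT nuclei and 893 in MTR4-null nuclei, and 778 and 567 in the cytoplasms, so the nuclear direction of the HSP sum depended on them.

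The mitochondrial chaperonin, in which Hspe1 forms the lid of the barrel made by Hspd1, had its pair at similar levels except in the WT cytoplasm. Hspd1 was at 42.5 FPKM in WT nuclei, 45.7 in MTR4-null nuclei, 44.7 in WT cytoplasms and 30.1 in MTR4-null cytoplasms. Hspe1 was at 38.9, 48.5, 77.2 and 31.2 FPKM in that order. The ratio of Hspe1 to Hspd1 was 1.73 in WT cytoplasms and between 0.914 and 1.06 in the other columns. Both genes share the upstream stretch printed above. The log2 difference of Hspe1 was 0.31 in the nucleus and -1.28 in the cytoplasm.

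Small heat shock proteins, which hold unfolded proteins without using ATP, were low: 3 of the 8 were under 1 FPKM in all columns. Hspb11, a small HSP by name that serves in the transport machinery of cilia, was at 11.7 FPKM in WT nuclei, 9.80 in MTR4-null nuclei, 6.55 in WT cytoplasms and 1.15 in MTR4-null cytoplasms. It was 1 of 2 members whose MTR4-null nuclei exceeded the MTR4-null cytoplasms at least 2-fold under every alternative. Hspb1, the best-studied small HSP, was at 4.35, 8.90, 8.18 and 3.997 FPKM. Hspb3 was listed at 0 in WT nuclei and stood at 2.096 FPKM in MTR4-null nuclei, 0.113 in WT cytoplasms and 1.25 in MTR4-null cytoplasms. Hspbap1, named for its binding to a small HSP, was at 3.81, 7.38, 6.87 and 3.44 FPKM. Hspb1 and Hspbap1 were both higher in the MTR4-null nucleus and lower in the MTR4-null cytoplasm, each by under 2-fold.

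The CCT subunits, which the finished ring needs in equal numbers, had very unequal mRNA levels in WT oocytes and far more similar ones in MTR4-null oocytes. Cct5, the most abundant in WT, was at 146 FPKM in WT nuclei, 95.6 in MTR4-null nuclei, 196 in WT cytoplasms and 61.2 in MTR4-null cytoplasms. Cct6a, the least abundant in WT, was at 3.15, 37.6, 4.31 and 21.8 FPKM in that order. The top of the WT order was lower and the bottom higher in MTR4-null, in both compartments. Cct4 was at 33.5 FPKM in WT nuclei, 63.4 in MTR4-null nuclei, 22.9 in WT cytoplasms and 56.9 in MTR4-null cytoplasms. Cct7 was at 17.1, 50.3, 22.1 and 27.9 FPKM. These subunits also stood low in WT and higher in both MTR4-null columns. Cct2 was at 66.8, 80.3, 79.7 and 51.6 FPKM. Cct3 was at 103, 108, 108 and 69.2 FPKM. Cct8 was at 61.8, 68.9, 67.2 and 46.1 FPKM. The levels of Cct2, Cct3 and Cct8 kept close to each other, with nuclear differences from 0.07 to 0.26 (below 0 for Cct3 and Cct8 once centred on all genes kept) and cytoplasmic ones from -0.64 to -0.53. The signs of all 3 cytoplasmic differences turned when columns were centred on genes at a mean of 20 FPKM or more (0.07 to 0.18), while those of Cct4, Cct5, Cct6a and Cct7 did not. Tcp1, the remaining ring subunit, which the symbol rule does not include, was at 46.6, 54.2, 63.8 and 19.99 FPKM.

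**Figure D2:**
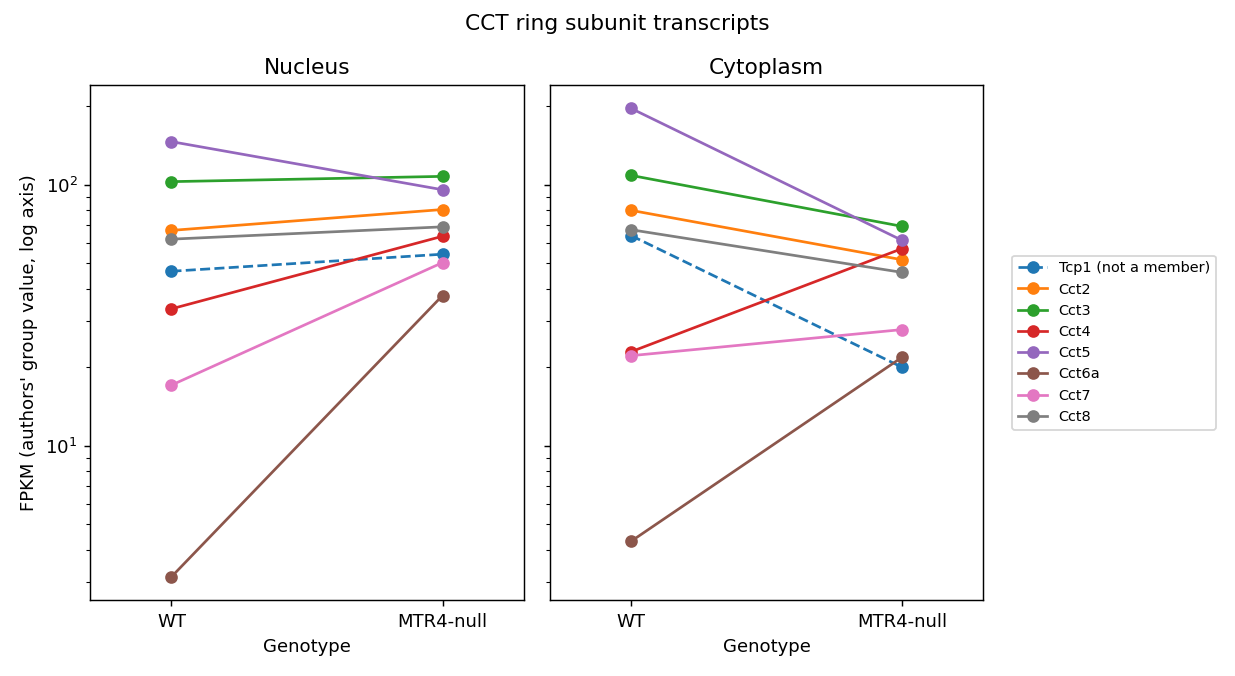
FPKM (log axis) of the ring subunits Cct2 to Cct8, and of Tcp1 as a dashed line, in WT and MTR4-null, with the nucleus in the left panel and the cytoplasm in the right one. Points are the authors' group values and lines join a gene; the lines draw together from WT, where Cct5 and Cct6a are over 45-fold apart, to MTR4-null, where the highest and lowest of Cct2 to Cct8 are about 3-fold apart.

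Across the 7 subunits Cct2 to Cct8, the highest level was 46.3 times the lowest in the WT nucleus and 45.5 times in WT cytoplasms, and 2.86 and 3.17 times in MTR4-null nuclei and cytoplasms. Ratios within a column do not depend on its scaling. The SD of log2(FPKM + 1) over the subunits was 1.75 in WT nuclei, 0.52 in MTR4-null nuclei, 1.76 in WT cytoplasms and 0.60 in MTR4-null cytoplasms. This SD is a spread over genes, not an error. Without Cct6a the highest level was 8.55, 2.14, 8.85 and 2.48 times the lowest in the same order, so that the narrower range in MTR4-null did not rest on that subunit. With Tcp1 added, the highest over lowest was 46.3, 2.86, 45.5 and 3.46. The spread was also narrower in MTR4-null over genes at large: over all 5724 genes reaching 20 FPKM in any column, the SD was 1.62, 1.34, 1.73 and 1.42. For the HSP members at that level it was 1.58, 1.59, 1.57 and 1.54, and for the DNAJ members 1.03, 1.10, 0.998 and 1.26. Over all members, low ones included, it was 2.90, 2.76, 3.02 and 2.56 for HSP and 2.35, 2.21, 2.38 and 1.96 for DNAJ, narrower in MTR4-null in both compartments. No test of the difference between these spreads could be made.

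Cct6a also hosts a small nucleolar RNA, Snora15, in the GENCODE annotation. Snora15 was at 125 FPKM in WT nuclei, 187 in MTR4-null nuclei, listed at 0 in WT cytoplasms and at 34.3 in MTR4-null cytoplasms. It was thus also higher in both MTR4-null columns, and its part in the level of Cct6a was not tested. Cct6b, a relative of Cct6a known from testis, was at 4.67 FPKM in MTR4-null nuclei and at 0.0434, 0.0640 and 0.0386 in WT nuclei, WT cytoplasms and MTR4-null cytoplasms. It passed the threshold of 1 FPKM through that single column.

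Among the J-domain proteins, the abundant cytosolic cochaperones of HSP70 were mostly below WT in the MTR4-null cytoplasm by the deposited values. So were 73.2% of all genes reaching 20 FPKM in some column. Dnajb4 was lower in both compartments. Dnajb4 was at 96.5 FPKM in WT nuclei, 32.2 in MTR4-null nuclei, 113 in WT cytoplasms and 27.2 in MTR4-null cytoplasms, with log2 differences of -1.55 and -2.01. Dnajb1, the stress-induced HSP40 and a close relative, was at 65.8, 51.1, 92.7 and 46.5 FPKM. Dnajb4 was above Dnajb1 in both WT columns and below it in both MTR4-null columns. Dnajb6, which holds back protein aggregation and was the most abundant DNAJ gene in 3 of the columns, was at 190, 222, 215 and 140 FPKM. The ratio of Dnajb6 to Dnajb4 was 1.97 and 1.91 in WT nuclei and cytoplasms, and 6.90 and 5.13 in the MTR4-null ones. Dnaja1, a general cochaperone of cytosolic HSP70, was at 70.8, 42.5, 61.3 and 26.6 FPKM. Dnaja2, of the same class, was at 53.0, 54.0, 75.2 and 37.4 FPKM. All 4 DNAJA genes were lower in the MTR4-null cytoplasm, with differences from -1.18 to -0.86 that kept their sign under every scaling tried. Dnajc7, which passes clients between HSP70 and HSP90, was at 56.0, 56.7, 56.9 and 42.8 FPKM. The cytoplasmic signs of Dnajc7 and Dnajb6 turned when columns were centred on genes at a mean of 20 FPKM or more (0.31 and 0.09).

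Of the J-domain proteins of the endoplasmic reticulum, Dnajc3, Dnajb11, Dnajc10 and Dnajc1 were below WT in the cytoplasm of MTR4-null oocytes. Others were not: Dnajb12, of its membrane, was at 8.48 FPKM in WT cytoplasms and 9.46 in MTR4-null cytoplasms, Dnajb14, also of its membrane, at 4.10 and 4.36, and Dnajb9, left out by the symbol rule, at 3.76 and 16.7. Dnajb12, Dnajb14 and Dnajb9 were named after their values were seen. Dnajc3, which also restrains kinases of the stress response, was at 61.2 FPKM in WT nuclei, 26.7 in MTR4-null nuclei, 67.3 in WT cytoplasms and 20.8 in MTR4-null cytoplasms. It was at least 2-fold lower in both compartments. Dnajb11 was at 43.2, 45.2, 57.6 and 28.9 FPKM. Dnajc10, a disulfide reductase, was at 18.8, 10.2, 20.9 and 8.56 FPKM. Dnajc1 was at 19.2, 16.1, 19.6 and 6.72 FPKM. Dnajb11, Dnajc10 and Dnajc1 were under 2-fold apart in the nucleus, and their cytoplasmic log2 differences lay between -1.42 and -0.97.

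The mitochondrial J-domain proteins Dnajc19, Dnajc15, Dnajc11 and Dnaja3 were all below WT in the cytoplasm by the deposited values, and differed in direction in the nucleus. Dnajc19, a subunit of the motor that pulls proteins through the inner membrane, was at 21.2 FPKM in WT nuclei, 8.35 in MTR4-null nuclei, 18.8 in WT cytoplasms and 2.27 in MTR4-null cytoplasms. Its log2 differences, -1.25 and -2.60, kept to at least 2-fold lower in every alternative. Dnajc15, its relative at the same membrane, was at 5.07, 6.55, 17.9 and 7.89 FPKM and stood lower in the WT nucleus than in the WT cytoplasm by -1.64. Dnajc11, linked to the cristae of the inner membrane, was at 121, 177, 169 and 140 FPKM. It was the second most abundant DNAJ gene in WT, and it was under 2-fold apart in all comparisons. Dnaja3, the main J-domain protein of the matrix, was at 34.1, 40.7, 30.8 and 16.5 FPKM.

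Dnajc21, Dnajc2, Dnajc8, Dnajc9 and Dnajc17, which work on RNA, ribosomes or chromatin, were likewise below WT in the cytoplasm by the deposited values and differed in direction in the nucleus. Dnajc21, needed for the large ribosomal subunit, was at 101 FPKM in WT nuclei, 58.7 in MTR4-null nuclei, 102 in WT cytoplasms and 38.2 in MTR4-null cytoplasms. Dnajc2, which meets the nascent chain at the ribosome, was at 29.0, 32.3, 30.5 and 14.6 FPKM. Both were below WT by at least 2-fold in the cytoplasm. Dnajc8, found with splicing factors, was at 60.1, 81.8, 89.7 and 60.02 FPKM. Dnajc9, a histone chaperone, was at 56.7, 53.4, 54.0 and 37.3 FPKM. Dnajc17, linked to splicing, was at 7.27 FPKM in WT nuclei, 15.8 in MTR4-null nuclei, 21.5 in WT cytoplasms and 8.63 in MTR4-null cytoplasms. It was past 2-fold above WT in the nucleus and past 2-fold below it in the cytoplasm, so that the column with more of it changed from the cytoplasm in WT to the nucleus in MTR4-null.

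Of the J-domain proteins of vesicles and membranes, Dnajc13, an endosomal protein, was at 34.7 FPKM in WT nuclei, 22.7 in MTR4-null nuclei, 45.4 in WT cytoplasms and 12.1 in MTR4-null cytoplasms. Dnajc5, the cysteine string protein of secretory vesicles, was at 21.1, 46.2, 21.9 and 17.6 FPKM, higher in the MTR4-null nucleus alone. Dnajc5b, a relative of Dnajc5, was at 2.42, 1.03, 8.30 and 0.454 FPKM. Its cytoplasmic difference of -2.68 was the lowest of all members. Past 2-fold above WT in the nucleus were also Dnajc16 (5.03 and 17.6 FPKM), Dnajc4 (3.76 and 13.7) and Dnajc24 (1.12 and 6.24), the last a factor of diphthamide synthesis. Lower there were Dnajb2 (12.5 and 5.16 FPKM) and Dnajc25 (5.08 and 0.779). None of these 5 was 2-fold apart in the cytoplasm.

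**Figure D3:**
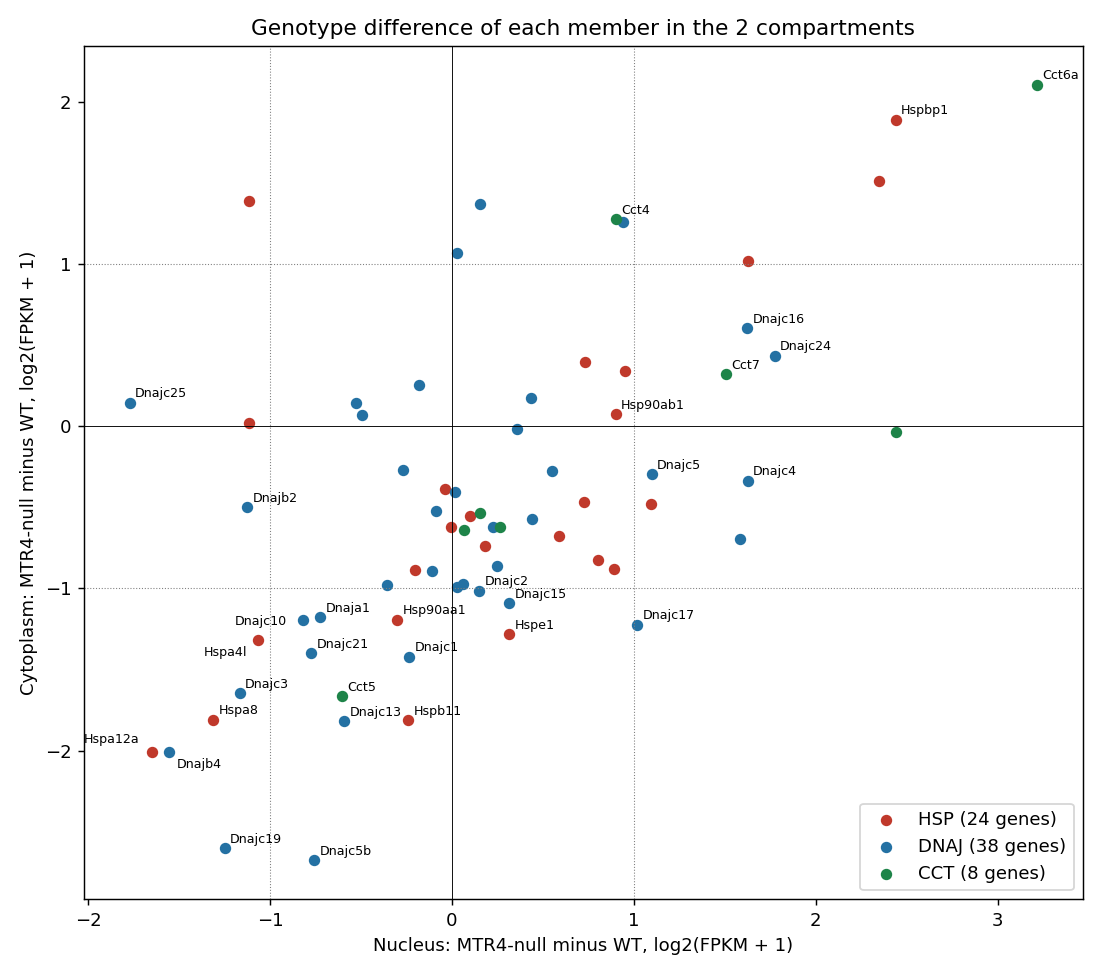
Log2 difference of MTR4-null minus WT in the nucleus (x axis) and in the cytoplasm (y axis) for the 70 members with 1 FPKM or more in some column, colored by group, with dotted lines at 2-fold. Labels mark members at 5 FPKM or more that lie past 2-fold, and Hsp90ab1; most points lie below 0 on the y axis, with Hspa8, Hspa12a, Dnajb4 and Dnajc19 at the lower left and Cct6a and Hspbp1 at the upper right.

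Counted over all 81 members, 13 exceeded WT at least 2-fold in the nucleus, where 23.9% of the 14270 genes with 1 FPKM or more in some column were called, and 10 were lower, with 12.3% of genes called. Genes under 1 FPKM in all columns cannot be 2-fold apart on this scale, so the counts rest on 70 members, of which 18.6% were higher and 14.3% lower. Of the 70, 5 passed through a single column, among them Cct6b, Dnajb3, Dnajb5 and Dnajb7, which are counted as higher in that column. In the cytoplasm 9 members were higher, with 15% of genes called, and 19 lower, with 21.4% of genes called. These were 12.9% and 27.1% of the 70. The shares of the members were near those of all genes in both compartments. Of the 39 members that reached 20 FPKM, 4 were higher and 5 lower in the nucleus, where 20.9% and 8.05% of genes at that level were called. In the cytoplasm 2 of the 39 were higher and 14 lower, where 11.1% and 31.3% were called.

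The groups differed little in their medians. In the nucleus the median log2 difference was 0.25 for HSP, 0.02 for DNAJ and 0.58 for CCT, against 0.21 for all genes kept. In the cytoplasm it was -0.59, -0.60 and -0.28, against -0.26. At 20 FPKM or more the cytoplasmic medians were -0.67 for HSP, -0.98 for DNAJ and -0.53 for CCT, against -0.64 for all genes at that level. By the deposited values, all 21 DNAJ members at that level were below WT in the cytoplasm, as were 73.2% of the 5724 genes. Centred on genes at a mean of 20 FPKM or more, 14 of the 21 were below WT and 7 above. In the nucleus, 4 HSP members were higher and 5 lower, 6 DNAJ members higher and 5 lower, and 3 CCT members higher and none lower (no test was run). In the cytoplasm the counts were 4 and 6 for HSP, 3 and 12 for DNAJ, and 2 and 1 for CCT. The 3 higher DNAJ members, Dnajb3, Dnajb5 and Dnajb7, reached 1 FPKM only in the MTR4-null cytoplasm, the column in which they are called higher. Cct6b, 1 of the 3 CCT members higher in the nucleus, likewise passed only through the MTR4-null nucleus. Among the higher HSP members, Hspbp1, Hspa1l and Hspb3 reached 1 FPKM only in the MTR4-null columns. At 20 FPKM or more the cytoplasmic counts for DNAJ were 0 and 9. The cytoplasmic medians of all 3 groups were near or above 0 when columns were centred on genes at a mean of 20 FPKM or more (0.12, 0.11 and 0.43).

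**Figure D4:**
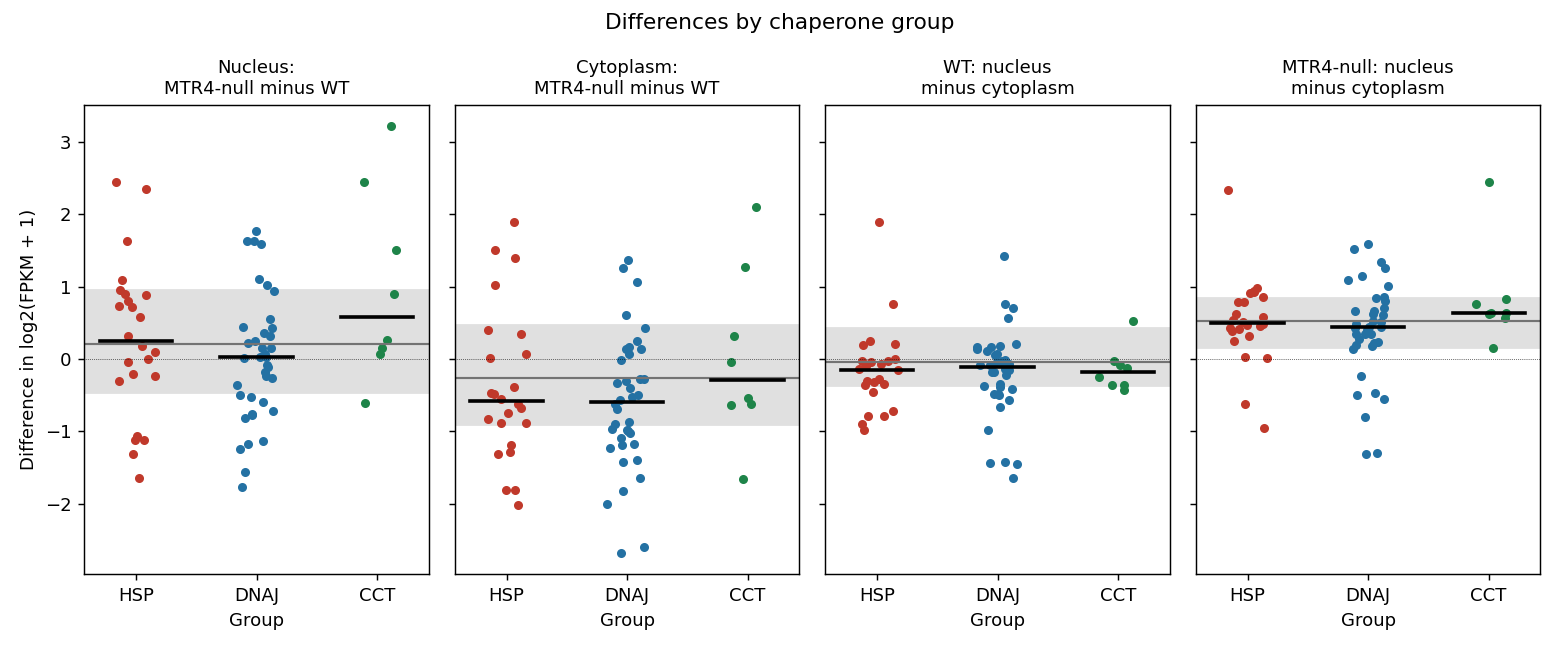
Log2 difference of each member with 1 FPKM or more in some column, by group, for the 4 comparisons named above the panels. Black bars are group medians, the grey line is the median of all 14270 genes kept and the grey band their middle 50%; the group medians lie inside the band in every panel.

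The comparisons of nucleus and cytoplasm use the same columns as those of genotype. In WT, 2 members were nuclear by at least 2-fold (12.4% of genes were called) and 4 cytoplasmic (4.71%). The cytoplasmic ones were Dnajc5b, Dnajc5g, Dnajc15 and Dnajc17, and the nuclear ones Dnajc25 and Hspb9. In MTR4-null, 9 were higher in the nucleus (17% of genes called) and 2 lower (1.84%). Most members therefore stood at similar levels in the nucleus and the cytoplasm of 1 genotype. The median over members kept was -0.14 in WT and 0.51 in MTR4-null, against -0.04 and 0.52 for all genes kept.

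The nuclear and the cytoplasmic comparison of genotypes share no column. Of the 81 members, 6 were at least 2-fold lower in both, as were 5.07% of all genes kept: Hspa8, Hspa12a, Hspa4l, Dnajb4, Dnajc3 and Dnajc19. At least 2-fold higher in both were 4, as were 9.59% of all genes kept: Cct6a, Hspbp1, Hspa1l and Hspb3. Of these, Hspbp1, Hspa1l and Hspb3 were under 1 FPKM in both WT columns. They passed the filter only through the MTR4-null columns, in which they are called higher. Dnajc17 and Hspb9 passed 2-fold in opposite directions. All 10 members lower in the nucleus, and 10 of the 13 higher ones, passed 2-fold under every alternative that kept them. These include Cct6b, Hspa1l and Hspb3 among the higher and Hspa1a and Hspb9 among the lower ones. The filters at 5 and 20 FPKM did not keep them. With genes kept at 5 FPKM, 8 members were higher and 8 lower in the nucleus. In the cytoplasm, 8 of the 9 higher members and 7 of the 19 lower ones passed 2-fold under every alternative that kept them. Among these lower ones were Hspa8, Hspa12a, Dnajb4, Dnajc13 and Dnajc19. The 8 higher members include Dnajb3, Dnajb5 and Dnajb7, which the filters at 5 and 20 FPKM did not keep. With genes kept at 5 FPKM, 3 members were higher and 19 lower in the cytoplasm, so the 2 shares are not comparable. Hspa4l, Dnajc3, Hsp90aa1, Cct5 and Hspe1 were among the 12 lower members that did not stay past 2-fold. No member past 2-fold changed sign. That carries little weight, since centring and rescaling shifted differences by less than 2-fold.

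The base composition of the transcripts varied with the difference, among HSP and DNAJ members as among all genes. Over the 70 members kept, Spearman's rho between GC content and the genotype difference was 0.30 for nuclei and 0.36 for cytoplasms, and over 12995 coding genes it was 0.22 and 0.19. By group, rho was 0.33 and 0.39 for HSP and 0.42 and 0.43 for DNAJ, but -0.07 and -0.26 over the 8 CCT members. These are correlations across genes within the same columns, and genes are not independent. In the 20% of genes lowest in GC, the 14 members there had a median of -0.27 in the nucleus and -1.13 in the cytoplasm, against -0.08 and -0.51 for all genes of that range. Dnajb4 and Hspa4l, at 39.0% and 39.5% GC, belong to it, whereas Hspa8 does not, at 51.2%. The member medians did not rise steadily with GC. In 20% ranges from lowest to highest GC, the cytoplasmic ones were -1.13, -0.56, -0.84, 0.14 and -0.16. Of the 10 single-exon members, 8 reached 1 FPKM, and 4 of them were higher and none lower in the MTR4-null cytoplasm (no test was run). All of these 4 were under 1 FPKM in WT cytoplasms, so the count rests on members near the floor. Of 339 single-exon coding genes other than histones, 131 were higher and 18 lower in the MTR4-null cytoplasm.

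The regulators and partners of the members were described from lists chosen with earlier results of these data known. Among the genes for heat shock factors and their binding partners, 6 of 8 reached 1 FPKM, and none was 2-fold apart in the nucleus (no test was run). Hsf1, the main activator of the heat shock response, was at 34.6 FPKM in WT nuclei, 58.8 in MTR4-null nuclei, 55.5 in WT cytoplasms and 46.3 in MTR4-null cytoplasms. Hsf2, a developmental factor, was at 9.07, 13.6, 5.69 and 10.4 FPKM, and Hsf5, a germ cell factor, at 9.92, 4.85, 11.1 and 2.45. Hsf1 was thus present in all columns, in which Hspa1a and Hspa1b stayed under 4 FPKM.

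For comparison with the counts that follow, 23.9% of all genes kept were higher and 12.3% lower in the MTR4-null nucleus, and 15% and 21.4% in the cytoplasm. Of the 15 HSP70 exchange factors and cochaperones kept, 5 were higher and 1 lower in the MTR4-null nucleus, and 2 were higher and 3 lower in the cytoplasm. Bag5, an exchange factor of HSP70, was at 2.24 FPKM in WT nuclei, 39.4 in MTR4-null nuclei, 2.63 in WT cytoplasms and 25.4 in MTR4-null cytoplasms. Like Hspbp1, it was low in WT and higher in both MTR4-null columns. Sil1, the exchange factor of the endoplasmic reticulum, was at 29.2, 84.8, 32.5 and 39.2 FPKM, and Grpel1, that of mitochondria, at 9.99, 29.0, 16.3 and 13.6.

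Of the 21 HSP90 cochaperones kept, 3 were higher and 1 lower in the nucleus, and 2 were higher and 7 lower in the cytoplasm. Ppp5c, a phosphatase bound to HSP90, was at 9.42, 47.8, 10.7 and 24.6 FPKM. Of the 15 CCT partners kept, 2 were higher and none lower in the nucleus, and 1 was higher and 5 lower in the cytoplasm (no test was run). Pfdn1, a subunit of the prefoldin that hands actin and tubulin to CCT, was at 50.9, 30.5, 64.9 and 17.7 FPKM, and Tbcc, a tubulin folding cofactor, at 12.4, 40.8, 16.99 and 15.2. Of 11 other folding genes, 2 were higher in each compartment. These were Pdia6, a disulfide isomerase (33.7, 187, 50.4 and 109.8 FPKM), and Clpp, a mitochondrial protease (1.21, 18.3, 5.33 and 13.1 FPKM). Another 2, Canx and Calr, chaperones of glycoproteins, were lower in the cytoplasm, Canx at 106.6 and 31.6 FPKM and Calr at 311 and 119.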

How the data were processed

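Total RNA of pooled oocyte nuclei or cytoplasms was sequenced, and the authors deposited 1 table of FPKM with 4 columns, 1 for each group. The submitters' processing notes name mm9, Cufflinks 2.2.1 and TopHat2 2.1.1 without settings. Of the values above 0, between 39.0% and 58.9% per column end in repeated 3s or 6s, the pattern of means over 3 values, although only WT nuclei have 3 libraries by the labels, so how libraries were combined is uncertain. Fragment counts were not used here, so the depth is unknown. 1 row without a gene name (the total) was left out.

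Differences were computed on log2(FPKM + 1) with Python 3.11.15 and pandas 2.3.3, numerator minus denominator (MTR4-null minus WT, nucleus minus cytoplasm). Genes at 1 FPKM or more in at least 1 column were kept (14270). No test could be run with 1 column per group. Counting was checked on simulated data. The members and lists were chosen with earlier results of these data known. Named genes were Cct2 to Cct8, HSP members at 5 FPKM or more, DNAJ members at 50 FPKM or more, members at least 2-fold apart at 5 FPKM or more (up to 6 per direction for each comparison), up to 4 genes per list, and others where the text says so or a count is named in full. GC content and exons came from GENCODE M21 and promoters from RefSeq (GRCm38.p6), matched by symbol. No coordinates were taken from the mm9 data. Alternatives were another pseudocount, filters, centring, rescaling and quantile normalization.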

Additional observations from a re-analysis of the deposited data

Results flagged for a closer look

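Dnajc17 was singled out because its columns went opposite ways: the log2 difference of MTR4-null minus WT was 1.019 in the nucleus and -1.224 in the cytoplasm. Hspb9, a small heat shock protein gene known from testis, went the other way, with -1.113 in the nucleus and 1.391 in the cytoplasm. Hspb9 was at 2.70 FPKM in WT nuclei, 0.708 in MTR4-null nuclei, listed at 0 in WT cytoplasms and at 1.62 in MTR4-null cytoplasms. In neither gene was the difference between compartments tested, since each group is a single column. For Dnajc17 neither direction kept to 2-fold under every alternative.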

How the results depend on the processing

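Of 180 values under alternatives (counts of members and group medians in 4 comparisons), 124 kept their sign and stayed within 1.5 times, 32 moved further and 24 changed sign. Counts are given as members higher and lower, medians as log2 differences. With no replicate spread, a median was taken as moved past 1.5-fold. Where no cause is named, the cause was not tested.

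Centring on all genes kept gave 3 and 7 in the MTR4-null compartment comparison, and medians there of -0.083 for DNAJ and -0.024 for HSP, and -0.18 for DNAJ in the nuclear genotype comparison. Rescaling without small RNA genes gave 4 and 5 in the MTR4-null compartment comparison with medians of 0.0063 (CCT), -0.11 (DNAJ) and -0.017 (HSP). It gave 9 lower, 0.024 (CCT) and -0.0046 (DNAJ) in the cytoplasm, and -0.16 (DNAJ) in the nucleus. Quantile normalization gave 3 and 5 with medians of -0.046 (CCT), -0.15 (DNAJ) and -0.038 (HSP) in the MTR4-null compartment comparison, 7 lower in the WT one, 11 lower and 0.082 (CCT) in the cytoplasm, and -0.16 (DNAJ) in the nucleus. A pseudocount of 0.1 gave 15 and 4 in the MTR4-null compartment comparison and 4 and 8 in the WT one.

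Keeping fewer genes lowers counts by construction. At 5 FPKM there were 8 higher in the nucleus with a DNAJ median of -0.098, 3 higher in the cytoplasm, 1 higher in the WT compartment comparison and 0 lower in the MTR4-null one. At 20 FPKM there were 4 and 5 in the nucleus with an HSP median of -0.0043, 2 higher in the cytoplasm, 0 and 1 in the WT compartment comparison, and 4 and 0 in the MTR4-null one. No test lies behind these counts of 0.

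Another 2 alternatives were chosen after seeing the data. A mean of 1 FPKM gave 1 lower in the MTR4-null compartment comparison and -0.034 (DNAJ) in the nucleus. Centring on genes at a mean of 20 FPKM gave 2 and 8 with 0.013 (CCT), -0.18 (DNAJ) and -0.12 (HSP) in the MTR4-null compartment comparison, and 0.013 (CCT), 0.087 (DNAJ) and 0.050 (HSP) in the WT one. It gave 14 and 7 with 0.43 (CCT), 0.11 (DNAJ) and 0.12 (HSP) in the cytoplasm, and -0.092 (DNAJ) in the nucleus. No paired analysis was possible because the table has 1 column per group, and leaving out each replicate was not run for the same reason.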
